A study of Mus musculus with 41 samples.

Results

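This account covers 2451 sites at which cultured mouse keratinocytes held MYC-tagged wild-type SOX9 (WT-SOX9) after doxycycline (DOX) and at which MLL3/4 was found after DOX and not before it. They are called gained sites here. CUT&RUN (CNR) finds where a protein sits on chromatin: an antibody brings a nuclease to it, and the short pieces of DNA that are released are sequenced. The gained sites were chosen by 4 peak lists of the cultured cells. A site is a peak of MYC-tag CNR in WT-SOX9 cells with DOX that an MLL3/4 peak of the same cells with DOX overlapped by at least 1 bp and that no MYC-tag or MLL3/4 peak of WT-SOX9 cells without DOX overlapped. They made up 36.7% (95% Wilson interval 35.6 to 37.9%) of the 6671 WT-SOX9 sites. Of the other WT-SOX9 sites, 2350 had no MLL3/4 peak with or without DOX, 1483 had MLL3/4 before DOX (prior MLL3/4 sites, of which 1091 kept it with DOX and 392 did not) and 387 had a MYC-tag peak without DOX.

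The cultured cells were primary keratinocytes grown from epidermal stem cells (EpdSCs) of the back skin of male CD1 mice, in which the Krt14 promoter drives the DOX-dependent activator rtTA. Lentivirus brought in a TRE-driven, MYC-tagged Sox9, as WT-SOX9 or as a variant that lacks the transactivation domain (dTA-SOX9) or the HMG domain that binds DNA (dHMG-SOX9). The cells were selected with puromycin, so all groups in culture share rtTA, a virus and the selection, and DOX was given at 1 µg/ml. In vivo, EpdSCs were sorted from male CD1 mice of genotype K14rtTA; TRE-myc-Sox9 at D0 (21 days old, before DOX) and after 1, 2 and 6 weeks of DOX (W1, W2 and W6, at 28, 35 and 63 days). The W12 sample came from skin grafted onto immunocompromised mice. Age and grafting therefore cannot be told apart from the weeks of DOX. Each group had 2 samples, and their pooled reads gave 1 peak list. No test between groups was possible, and an absent peak can mean fewer cells with the protein or less of it in each cell, which cannot be told apart. The labels describe each of the 2 WT-SOX9 samples with DOX and MLL3/4 antibody as replicate 2, although their titles are numbered 1 and 2.

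SOX9 is a transcription factor of the SOX family that bends DNA with its HMG domain and can bind its motif on nucleosomes. In skin it marks hair follicle stem cells and the outer root sheath, and adult EpdSCs do not normally make it. MLL3 and MLL4 (KMT2C and KMT2D) are histone methyltransferases that place the monomethyl mark on lysine 4 of histone H3 at enhancers. They have little sequence preference of their own and reach enhancers through transcription factors.

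The DNA under the strongest gained sites is shown first, since it is where MYC-tagged SOX9 and MLL3/4 were found together. Each line gives 101 bases of the plus strand of mm10, with the middle of the MYC-tag maximum at its centre and 50 bases on either hand. Capitals mark the SOX word, which is CCATTGT on either strand, or else the word CCTTTGT in its place, or the word GCATTGT as a further form, or finally the word GCTTTGT in the same way. The first 6 windows belong to 6 of the 8 gained sites of highest total MYC-tag signal. The nearest protein-coding gene starts are those of Grik2 (site in its intron), Usp32 (in its intron), Clca4a (in an intron of a non-coding gene), Tfpi (likewise), Gm21961 (intergenic) and Tle1 (intergenic).
Grik2, chr10:49657965-49658065: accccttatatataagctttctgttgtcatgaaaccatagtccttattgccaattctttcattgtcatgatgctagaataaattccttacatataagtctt
Usp32, chr11:85078818-85078918: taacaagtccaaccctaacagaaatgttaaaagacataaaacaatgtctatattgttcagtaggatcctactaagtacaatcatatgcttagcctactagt
Clca4a, chr3:144978196-144978296: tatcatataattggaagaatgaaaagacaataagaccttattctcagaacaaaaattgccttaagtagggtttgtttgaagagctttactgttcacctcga
Tfpi, chr2:84518864-84518964: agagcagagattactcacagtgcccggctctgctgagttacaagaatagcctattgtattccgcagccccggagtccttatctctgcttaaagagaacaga
Gm21961, chr15:65053951-65054051: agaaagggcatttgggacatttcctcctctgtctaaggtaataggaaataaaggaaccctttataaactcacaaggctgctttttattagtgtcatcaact
Tle1, chr4:72233964-72234064: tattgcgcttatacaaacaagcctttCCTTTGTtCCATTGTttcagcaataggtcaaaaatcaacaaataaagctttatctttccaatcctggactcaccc

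The Tle1 window held 2 SOX words in tandem, and the other 5 windows held none, although their letters come close to it in places. The next 3 windows come from strong gained sites with an inverted pair of SOX words, the arrangement to which pairs of SOX9 molecules are known to bind. They lie 35051 bp from the start of Tmem179 (intergenic), in an intron of Mtmr12 and in an exon of Fam102a. In these windows the words of a pair stood 2, 3 and 2 bases apart.
Tmem179, chr12:112551860-112551960: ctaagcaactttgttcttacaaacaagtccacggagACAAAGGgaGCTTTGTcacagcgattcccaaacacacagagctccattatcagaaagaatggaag
Mtmr12, chr15:12247834-12247934: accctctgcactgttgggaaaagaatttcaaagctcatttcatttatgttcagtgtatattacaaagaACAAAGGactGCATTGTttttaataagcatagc
Fam102a, chr2:32559767-32559867: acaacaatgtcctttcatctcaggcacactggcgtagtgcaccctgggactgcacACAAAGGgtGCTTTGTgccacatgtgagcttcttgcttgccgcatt

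The signals that chose the gained sites are given as a description, with no test. The MYC-tag maximum of a site, in RPKM (a fragment count scaled to the length of the bin and the size of the library), ranged from 1806 to 24953 with a median of 2955. At 164 RPKM per fragment, these were 11, 152 and 18 overlapping fragments. The median maximum was 2134 RPKM at sites without MLL3/4 and 2462 RPKM at those that kept it. Gained sites were 234 bp wide at the median, against 143 bp for sites without MLL3/4. Their MLL3/4 maximum with DOX, in overlapping fragments without scaling, ranged from 4 to 67 with a median of 10.

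The overlap that the rule asked for also brings the maxima of the 2 peaks near each other, so their distance is a description. They lay 35 bp apart at the median, 61.0% of the gained sites had them within 50 bp and 82.3% within 100 bp. In all, 2394 of the 10543 MLL3/4 peaks with DOX (22.7%) overlapped gained sites. Among the 4403 MLL3/4 peaks that no peak without DOX overlapped, 2353 (53.4%) did. At the borders of the rule, the overlap was as small as 1 bp and 5 gained sites overlapped by under 20 bp, whereas the nearest site without MLL3/4 missed a peak by 1 bp and 22 such sites lay within 100 bp of one. On the other side, 33 gained sites lay within 100 bp of an MLL3/4 peak without DOX. At the limit of 1800 RPKM that the authors set, 197 gained sites had the lowest maximum in the list, 1806 RPKM.

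Gained sites lay at promoters less often than prior MLL3/4 sites. Within 1 kb of an annotated transcript start there were 195 gained sites (7.96%, 95% Wilson interval 6.95 to 9.09%), against 15.2% of all WT-SOX9 sites and 24.5% of the prior MLL3/4 sites. The difference from the latter was -16.6 percentage points (95% Newcombe interval -19.1 to -14.2), but among sites with a maximum above 3600 RPKM it was -1.54 points with an interval from -6.04 to 2.06, which holds 0. The difference from sites without MLL3/4 was -1.75 points (-3.36 to -0.141). Of the gained sites, 48.8% lay in introns, 38.1% between genes and 5.14% in exons, near the 44.8%, 35.6% and 4.38% of all WT-SOX9 sites and the 48.3%, 37.7% and 4.21% of those without MLL3/4. The start of the nearest protein-coding gene was 26004 bp away at the median (19646 bp for all WT-SOX9 sites), and for 22.6% of the gained sites it was over 100 kb away (19.9% of all, 23.4% of those without MLL3/4).

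Some gained sites lay close together. With a gap of at most 10 kb, 423 gained sites (17.3%) fell into 191 groups of 2 or more, against 7.15% of the sites without MLL3/4 and 14.8% of those that kept it. With a gap of at most 2 kb the shares were 9.47%, 2.98% and 10.5%. A class with more sites has more neighbours by number alone. The 3 classes hold 2451, 2350 and 1091 sites, which these shares do not take into account. The longest group at 10 kb held 11 sites among those without MLL3/4, and among gained sites 8, in 21207 bp within Chl1, which encodes a neural cell adhesion molecule. Groups of 4 lay near Dtna and between Hibadh and Tax1bp1. Density differed between chromosomes, for gained sites and for all WT-SOX9 sites. It was 19.5 gained sites per 10 Mb on chromosome 18, 16.3 on 19 and 15.8 on 6, against 4.68 on chromosome 5 and 1.87 on X. All WT-SOX9 sites stood at 47.1, 44.1, 42.2, 14.6 and 6.02 per 10 Mb there, so that gained sites made up 41.5%, 36.9%, 37.3%, 32.1% and 31.1% of them. The lowest gained share was 26.4% on chromosome 11, with 9.91 gained sites and 37.6 WT-SOX9 sites per 10 Mb. For SOX9 in vivo at W1, the same chromosomes held 55.5, 79.9, 59.8, 53.3 and 11.1 peaks per 10 Mb, and MLL3/4 in culture without DOX 186, 203, 160, 106 and 37.9. The part of the chromosomes in the results below was not tested.

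The SOX word was more frequent at gained sites than at prior MLL3/4 sites. It stood within 50 bp of the maximum at 957 gained sites (39.0%, 37.1 to 41.0%), at 39.8% of sites without MLL3/4 and at 34.3% of all WT-SOX9 sites, against 6.87% of windows 1 kb to either side of gained sites. The difference between gained sites and sites without MLL3/4 was -0.742 points, with an interval from -3.51 to 2.02. Over a longer word, CCATTGT or in its place the form CCTTTGT with a further T at the end, the shares were 12.2% and 15.4%, a difference of -3.20 points (-5.16 to -1.26). Prior MLL3/4 sites held the SOX word less often, 24.6%, a difference of 14.4 points (11.5 to 17.3). The word was most frequent at the maximum itself. Per 100 gained sites and 20 bp it was counted 13.2 times just before the maximum and 12.6 times just after it, and 2.24 times in the outermost step before it.

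**Figure D1:**
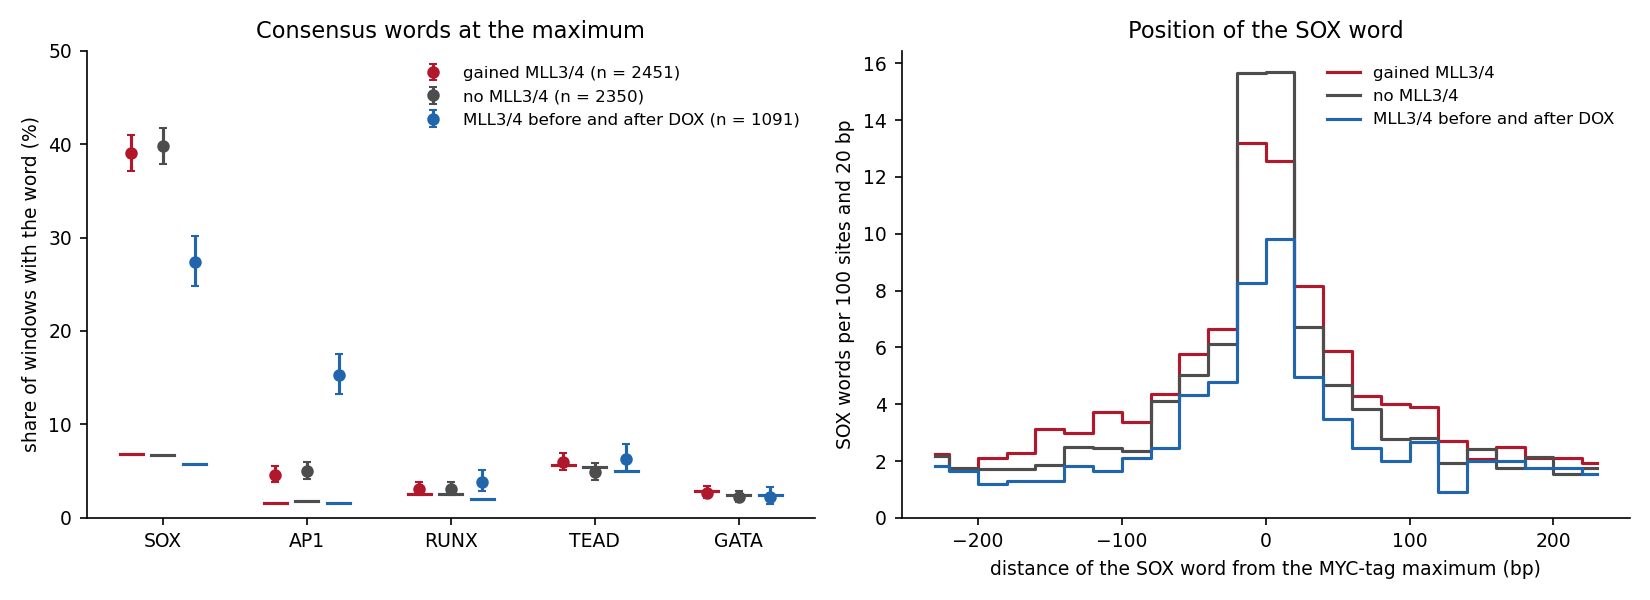
Consensus words at WT-SOX9 sites that gained MLL3/4, had none or had it before and after DOX. Left, share of windows of 50 bp to each side of the maximum that hold each word (points, with 95% Wilson intervals) and the share of windows 1 kb away (short lines). Right, SOX words per 100 sites in steps of 20 bp from the MYC-tag maximum, highest at the maximum in all 3 classes. Gained sites reach 39.0% for SOX and 4.61% for AP1, and sites that kept MLL3/4 27.4% and 15.3%.

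AP1, the family of FOS and JUN proteins that is abundant in keratinocytes, gave the opposite order. The word TGACTCA, or in its place the word TGAGTCA, stood at 4.61% of gained sites (3.85 to 5.51%), at 4.98% of sites without MLL3/4 and at 7.12% of all WT-SOX9 sites. Prior MLL3/4 sites held them at 15.0%, and gained sites lay 10.4 points below (interval of the difference -12.4 to -8.41). Windows 1 kb from gained sites gave 1.57%. The RUNX word AACCACA, the word of TEAD factors, which is GGAATG, and the GATA word, written AGATAAC or else in the form AGATAAG, stood at 3.1%, 5.96% and 2.69% of gained sites and at 2.59%, 5.61% and 2.90% of windows 1 kb away, with 3.18%, 5.71% and 2.41% of all WT-SOX9 sites, and for each of them the interval of the difference from sites without MLL3/4 and from prior MLL3/4 sites held 0. CTCF words were found at 3 gained sites (0.122%), beside 0.180% of all WT-SOX9 sites and 0.224% of windows 1 kb away. TP63 words were found at 0 gained sites and at 2 of all WT-SOX9 sites, and for the former the upper end of the Wilson interval is 0.156% and 3 counts would make 0.122%.

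Pairs of SOX words were rare. A pair with at most 20 bases between was inverted at 32 gained sites (1.31%), tandem at 29 and everted at 17, against 0.0612%, 0.0408% and 0.0204% of the windows 1 kb away. Over all WT-SOX9 sites the shares were 1.5%, 1.14% and 0.525%, near the 1.31%, 1.18% and 0.694% of gained sites. Of the 32 inverted pairs, 11 had a gap of 2 bases and 7 a gap of 1 base. Sites without MLL3/4 held inverted pairs at 2.26%, and the difference, -0.950 points, had an interval from -1.73 to -0.201. Sites that kept MLL3/4 held them at 0.917%, and the interval of that difference, -0.463 to 1.07, holds 0.

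In vivo, SOX9 was found at about 1 gained site in 2. A SOX9 peak of any week from W1 to W12 overlapped 1278 gained sites (52.1%, 50.2 to 54.1%), against 54.6% of all WT-SOX9 sites, 32.6% of those without MLL3/4 and 85.8% of the prior MLL3/4 sites. The difference from sites without MLL3/4 was 19.5 points (16.8 to 22.3) and from prior MLL3/4 sites -33.7 points (-36.3 to -31.0). At D0 the share was 0.490%, with 3.39% of all WT-SOX9 sites. It was 33.0% at W1 (37.6% of all), 32.0% at W2 (36.8%), 47.4% at W6 (48.5%) and 37.9% at W12 (39.3%). When the same sites were moved by 10 kb to each side, these shares fell to between 0.0816% at D0 and 2.02% at W6. At W1 gained sites lay 14.4 points above sites without MLL3/4 (11.9 to 16.8) and 34.2 points below prior MLL3/4 sites (interval of the difference -37.2 to -31.2). The lists had different lengths, from 792 peaks at D0 and 9745 at W12 to 20579 at W6, and their part in the order of the weeks was not tested.

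**Figure D2:**
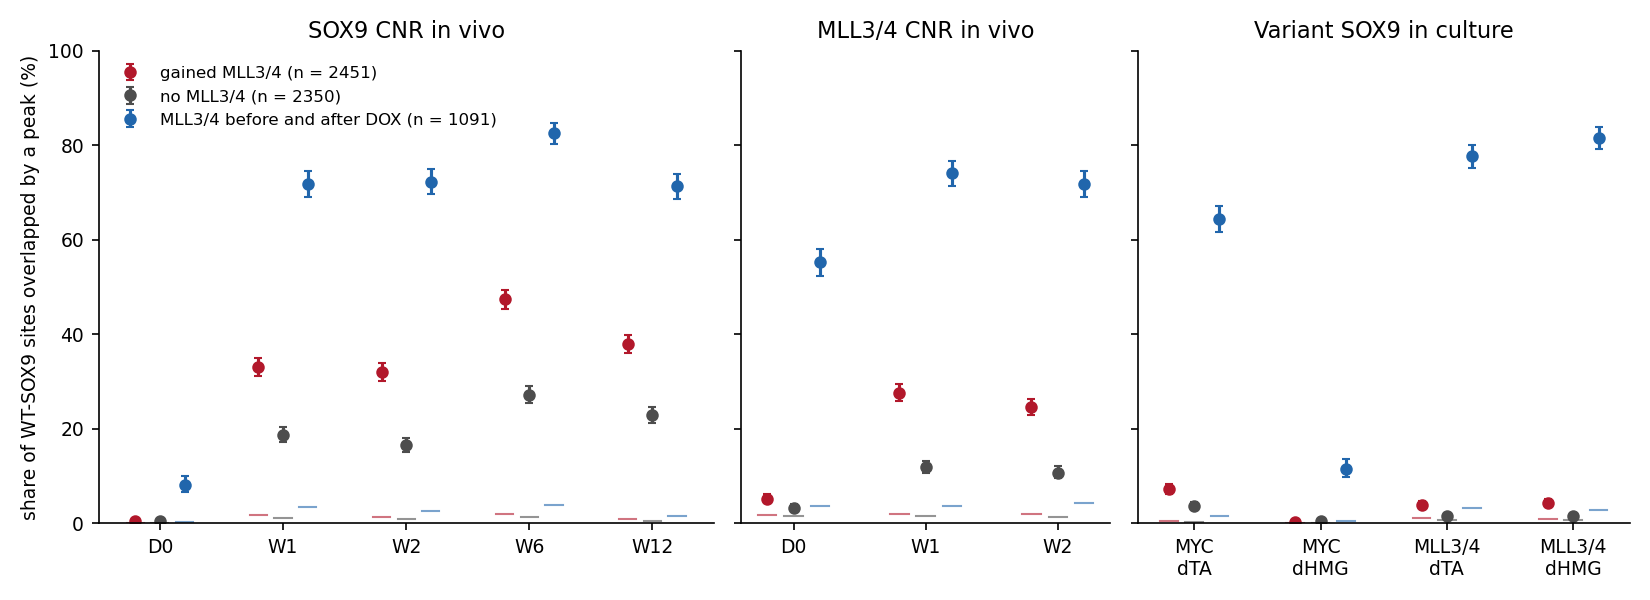
Share of WT-SOX9 sites overlapped by a peak of lists that the choice of sites did not use, for sites that gained MLL3/4, had none or had it before and after DOX. Points have 95% Wilson intervals, and short lines give the share after moving the sites by 10 kb. Gained sites lie between the other classes for SOX9 in vivo from W1 on (33.0% against 18.7% and 71.9% at W1) and close to sites without MLL3/4 for the SOX9 variants.

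The MYC-tag signal was higher at gained sites than at sites without MLL3/4, and its part in the difference between them was not tested. All WT-SOX9 sites were divided into 4 groups of near equal size by their maximum. For SOX9 in vivo in any week the difference was 14.7 points in the group of lowest maximum (8.65 to 21), 9.65 in the second (4.00 to 15.3), 9.74 in the third (4.25 to 15.1) and 7.08 in the highest (0.646 to 13.7). All 4 intervals leave out 0. The groups rest on the maximum alone and not on width. At the median gained sites were wider, 234 bp against 143 bp, and the part of width was not tested. At W12 alone they held 0 in the third group (3.72 points, -1.32 to 8.69) and in that of highest maximum (2.12 points, -4.53 to 8.78). With a maximum above 3600 RPKM, which left 876 gained sites, the difference at W1 was 5.05 points with an interval from -2.20 to 12, which holds 0. The SOX word was less frequent at gained sites in the third group, 35.6% against 48.6% (difference -12.9 points, -18.4 to -7.44), and the other 3 intervals held 0. The AP1 words were less frequent in the group of highest maximum (-4.21 points, -8.19 to -1.20) and gave intervals that held 0 in the other 3.

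**Figure D3:**
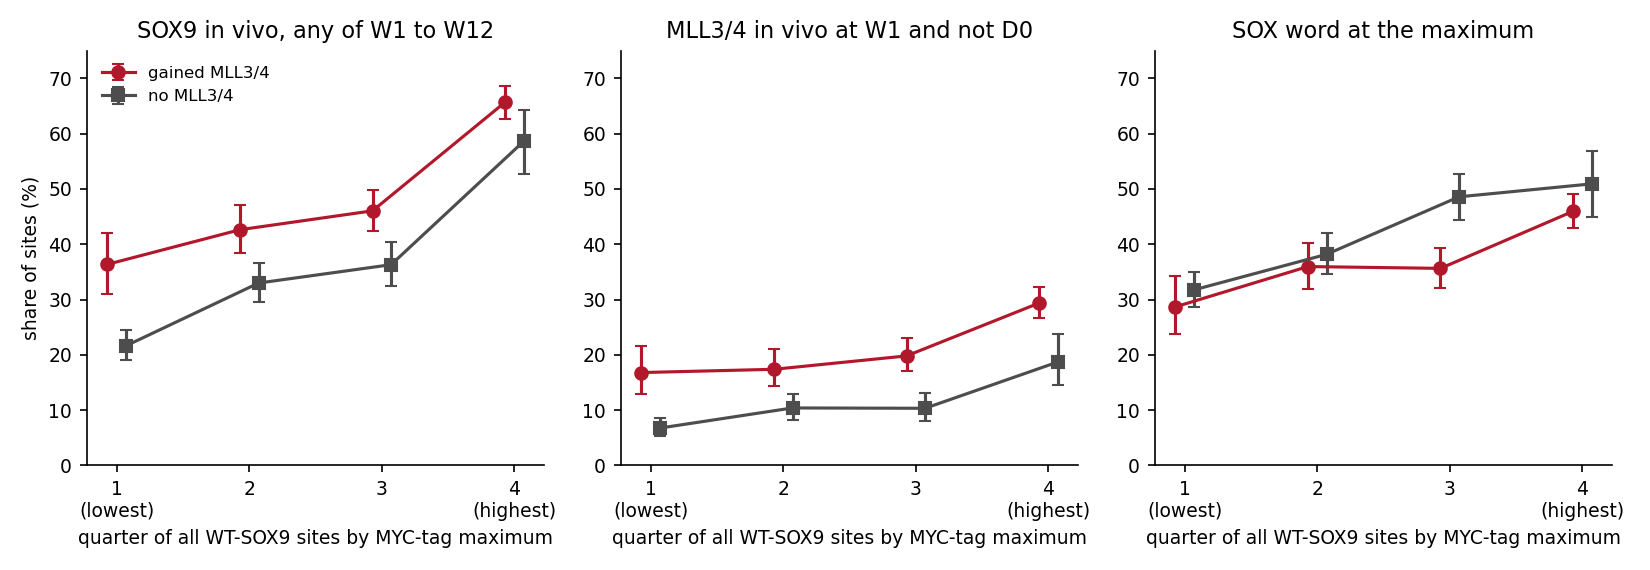
Share of gained sites and of sites without MLL3/4 that had SOX9 in vivo, MLL3/4 gained in vivo or the SOX word, in 4 groups of all WT-SOX9 sites by MYC-tag maximum, with 95% Wilson intervals. Gained sites lie above sites without MLL3/4 in each group of the left and middle panels, by 7.08 to 14.7 and 6.99 to 10.7 points. The groups do not take peak width into account.

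The weeks at which SOX9 was seen formed a few patterns. Of the gained sites, 582 (23.7%, 22.1 to 25.5%) were in the SOX9 lists of all 4 times from W1 to W12, against 25.8% of all WT-SOX9 sites, and 1173 (47.9%) were in none of the 4. W6 or W12 without W1 and W2 held 372 gained sites (15.2%, 13.8 to 16.7%), and W1 or W2 without W6 and W12 held 58 (2.37%, 1.84 to 3.05%). All WT-SOX9 sites stood at 13% and 2.59%. For the later pair gained sites lay 3.94 points above sites without MLL3/4 (2.03 to 5.85) and 3.04 points above prior MLL3/4 sites (0.812 to 5.19). Seen from the in vivo lists, gained sites took 783 of the SOX9 peaks at W1 (5.0%), 770 at W2 (4.13%), 1129 at W6 (5.49%) and 910 of the shorter list at W12 (9.34%). Those peaks were strong ones, since their median total signal stood at percentile 75.7 of the W1 list and 77.3 of the W12 list.

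**Figure D4:**
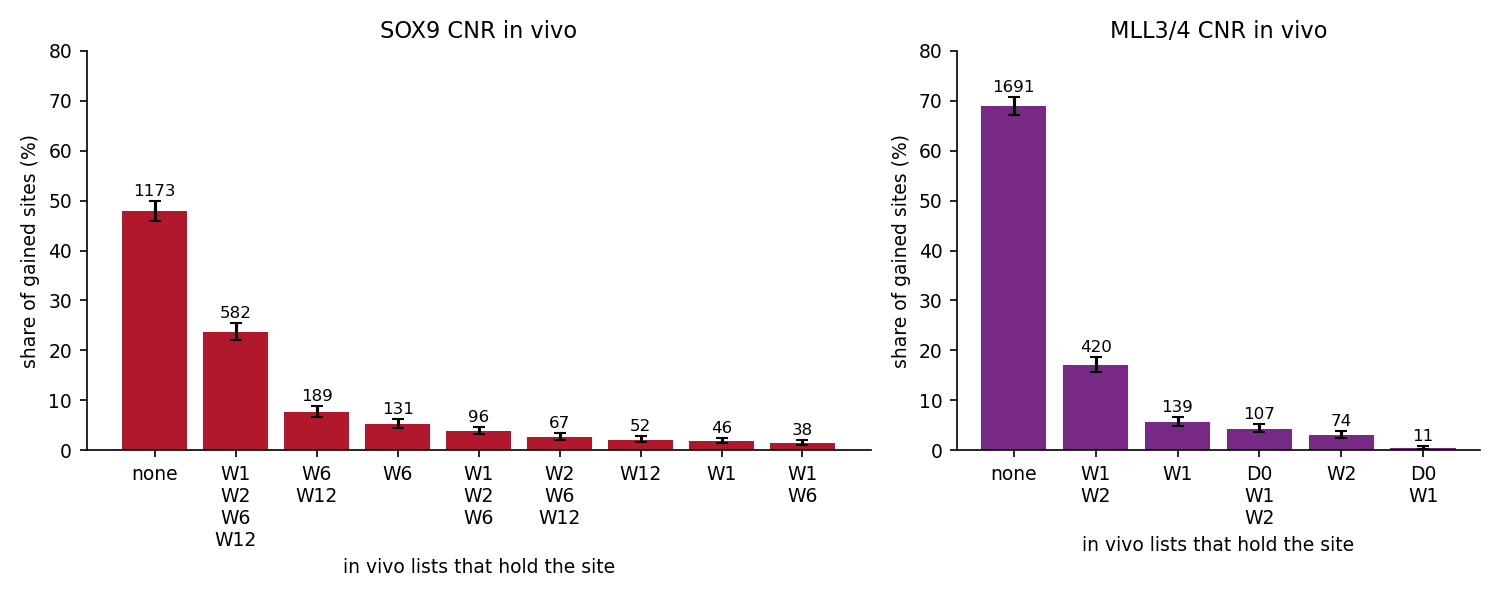
Share of the 2451 gained sites by the set of in vivo lists that hold them, for SOX9 (9 most frequent sets of W1 to W12) and MLL3/4 (6 most frequent of D0 to W2), with 95% Wilson intervals and the number of sites above each bar. The largest sets are none (1173 and 1691 sites), SOX9 at W1, W2, W6 and W12 (582) and MLL3/4 at W1 and W2 without D0 (420).

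MLL3/4 was also gained in vivo at some of these sites. An MLL3/4 peak overlapped 5.18% of gained sites at D0, 27.6% at W1 and 24.6% at W2, beside 21%, 34.7% and 32.8% of all WT-SOX9 sites. A W1 peak without a D0 peak was found at 559 gained sites (22.8%, 21.2 to 24.5%), against 16.3% of all WT-SOX9 sites, 10% of those without MLL3/4, 18.8% of the prior MLL3/4 sites and 21.5% of those that kept it. A site with a D0 peak cannot count here, and 57% of the prior MLL3/4 sites had one. Among the 5272 WT-SOX9 sites without a D0 peak, in a comparison added after the data were seen, a W1 peak was found at 24.1% of 2324 gained sites (22.4 to 25.8%), against 20.6% of all. The share was 10.3% of 2273 sites without MLL3/4, 13.7 points lower than at gained sites (11.6 to 15.9). It was 43.7% of 638 prior MLL3/4 sites, and gained sites lay below them (difference -19.7 points, -23.9 to -15.5). Most of these sites also had SOX9 in vivo. Of the 1278 gained sites with SOX9 in any week, 42.2% had MLL3/4 gained at W1, and of the 1173 without SOX9 1.71%, a difference of 40.5 points (37.6 to 43.3). The same direction held in the other classes: with and without SOX9 the shares were 29.2% and 0.694% at sites without MLL3/4, 23.3% and 6.90% at those that kept it, and 28.5% and 1.58% over all WT-SOX9 sites. Of all gained sites, 53.4% were in at least 1 of the 8 in vivo lists, against 57.6% of all WT-SOX9 sites.

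The MLL3/4 peaks of WT-SOX9 cells that arose with DOX away from any WT-SOX9 site offer a comparison. Of the 2353 such peaks on gained sites, 22.7% were gained in vivo at W1, and of the 2046 on no WT-SOX9 site 14.0%, a difference of 8.62 points (6.35 to 10.9). Without the peaks that overlapped one of D0, the difference was 8.34 points (5.91 to 10.7). For SOX9 in vivo the difference was 12 points at W1 (9.42 to 14.6), 12.3 at W2 (9.69 to 14.8), 20.5 at W6 (17.7 to 23.3) and 22.8 at W12 (20.3 to 25.3).

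Without the transactivation domain, SOX9 was rarely found at gained sites. A MYC-tag peak of dTA-SOX9 overlapped 176 gained sites (7.18%, 6.22 to 8.27%), although that list, with 11341 peaks, is longer than the 6671 of WT-SOX9. It overlapped 19.2% of all WT-SOX9 sites and 56.0% of the prior MLL3/4 sites, a difference of -48.9 points (-51.5 to -46.1). The share was 13.0% with MLL3/4 lists of equal size. Sites without MLL3/4 had the dTA-SOX9 peak at 3.62%, which is 3.56 points lower than at gained sites (2.29 to 4.85). dHMG-SOX9 had a MYC-tag peak at 6 gained sites (0.245%), against 6.4% of all WT-SOX9 sites and 0.553% of those without MLL3/4. Sites with a MYC-tag peak without DOX were kept out of the set, and 57.9% of them had a dHMG-SOX9 peak. The low share of dHMG-SOX9 at gained sites therefore follows in part from the choice.

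MLL3/4 was likewise seldom found at gained sites in cells with either variant. The share was 3.92% with dTA-SOX9 (3.22 to 4.76%) and 4.20% with dHMG-SOX9 (3.48 to 5.07%), where all WT-SOX9 sites reached 23.7% and 25%. Sites without MLL3/4 stood at 1.53% in both, so that gained sites lay 2.38 points (1.48 to 3.33) and 2.67 points (1.74 to 3.64) higher. Moving the gained sites by 10 kb gave 1.14% and 0.959%. In all, 2203 gained sites (89.9%) were in none of the 4 lists of the variants, against 68.7% of all WT-SOX9 sites, 94.2% of those without MLL3/4 and 10.2% of the prior MLL3/4 sites. No variant was measured without DOX, so the lists do not say whether a variant itself changed a site. Since no-DOX MLL3/4 peaks kept a site out of the set, a low share in any MLL3/4 list of culture that is like the one without DOX follows in part from the choice. Replicate 1 without DOX is 1 of the 2 samples behind the pooled no-DOX lists of the rule. Its low shares at gained sites therefore follow in large part from the choice. Alone, it had an MLL3/4 peak at 73 gained sites (2.98%, with 28.5% of all WT-SOX9 sites) and a MYC-tag peak at 5 (0.204%, with 9.07%). The nearest genes to the latter 5 sites were Slc4a3, Basp1, Atad1, Stn1 and Chchd3, named here after their values were seen.

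The 176 gained sites with a dTA-SOX9 peak differed from the other 2275 in some respects. AP1 words stood at 14.8% of them and 3.82% of the others, a difference of 10.9 points (6.38 to 17.0). SOX words stood at 35.8% and 39.3%, where the interval of the difference, -10.5 to 4.08, holds 0. SOX9 in vivo in any week was found at 78.4% and 50.1% (difference 28.3 points, 21.3 to 34.1) and MLL3/4 with dTA-SOX9 at 34.1% and 1.58% (32.5 points, 25.9 to 39.8). Their median MYC-tag maximum in WT-SOX9 cells was 3119 RPKM, against 2955 RPKM. This division of the sites was chosen with earlier results known.

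Among the 10 gained sites of highest total MYC-tag signal, SOX9 in vivo ranged from no peak to strong peaks. Those called near a gene had its start as the nearest protein-coding one, 3025 bp (Clca4a) to 55086 bp (Necab1) away. RPKM from the MYC-tag antibody in culture and from the SOX9 antibody in vivo have no common scale, so levels are set side by side without comparing them. The highest lay in an intron of Lmnb1, which encodes lamin B1, with a maximum of 24953 RPKM in culture. There SOX9 in vivo reached 2593 and 3285 RPKM at W1 and W2 and 10620 and 9789 RPKM at W6 and W12, so that the later weeks were higher. No MLL3/4 peak was listed there in vivo. The site near Tle1, which encodes a Groucho co-repressor of WNT target genes, had 7880 RPKM in culture. SOX9 in vivo stood there at 13196 and 18641 RPKM at W1 and W2 and at 15070 and 10295 RPKM at W6 and W12, and MLL3/4 was listed at W1 and W2 and not at D0. The sites near Clec2d, a C-type lectin gene, and Necab1, which encodes a calcium-binding protein, shared this pattern, with 17460 and 9508 RPKM at W1 and 10111 and 6664 RPKM at W12. These 3 were the highest of 383 gained sites (15.6%) that had SOX9 at all times from W1 to W12 and MLL3/4 gained in vivo at W1, a pattern of 10.9% of all WT-SOX9 sites and 14.8% of those that kept MLL3/4.

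The other 6 of the 10 had a highest SOX9 value in vivo of at most 8773 RPKM, or no SOX9 peak there. In the intron of Grik2, a kainate receptor gene, SOX9 was listed at W6 (3820 RPKM) and W12 (2987 RPKM), and in the intron of Usp32, a deubiquitinase gene, at W6 alone (1847 RPKM). The site near Mc5r, which encodes a melanocortin receptor of sebaceous glands, was likewise listed at W6 alone (2183 RPKM). Near Tfpi, which encodes an inhibitor of blood coagulation, SOX9 stood at 2478 RPKM at W1 and 8773 RPKM at W6, each a single pooled value. Near Clca4a, SOX9 stood at 2535 RPKM at W1, 4156 at W6 and 4320 at W12. The site near Gm21961, with 10506 RPKM in culture, was in no in vivo list. Outside the 10 sites, neither was that in an intron of Grm7 (7716 RPKM in culture), a glutamate receptor gene. The same held for an intergenic site (12640 RPKM in culture) whose nearest protein-coding gene start, that of Nmbr, was 831766 bp away. These 3 were the strongest in culture of 1141 gained sites (46.6%) that no in vivo list held.

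The 5 gained sites with the highest MLL3/4 totals are named by the nearest protein-coding gene start. It lay 7162 bp away for Utp20, 149375 bp for Ccn2, 109565 bp for Pfn2 and 15498 bp for Tas2r144. The Mettl14 site lay in an intron of that gene. Their MLL3/4 maxima were 36 fragments for Utp20, 61 for Ccn2, 34 for Pfn2, 54 for Mettl14 and 35 for Tas2r144. The intergenic site named by Ccn2 had 2627 RPKM of MYC tag in culture. It held SOX9 in vivo at 9220, 7945 and 5247 RPKM in the first 3 lists from W1 on and was not listed at W12. The sites named by Ccn2, Pfn2, Mettl14 and Tas2r144 all had MLL3/4 peaks in vivo at W1 and W2 and not at D0, and the one named by Utp20 had none.

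Around genes, 2657 of 21938 protein-coding genes (12.1%) had at least 1 gained site within the gene or 50 kb to each side. These loci were longer, with a median of 139 kb against 117 kb for all genes. The genes with the most gained sites were Chl1 with 11, Sox6 with 9, Exoc4 (an exocyst subunit) with 8, Rad51b (DNA repair) with 7 and Mitf (the melanocyte master regulator) and Sema5a (a semaphorin) with 6 each. Their loci span 340, 668, 825, 617, 314 and 552 kb. At Rad51b 6 of the 7 had SOX9 in vivo, and at Exoc4 1 of the 8.

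**Figure D5:**
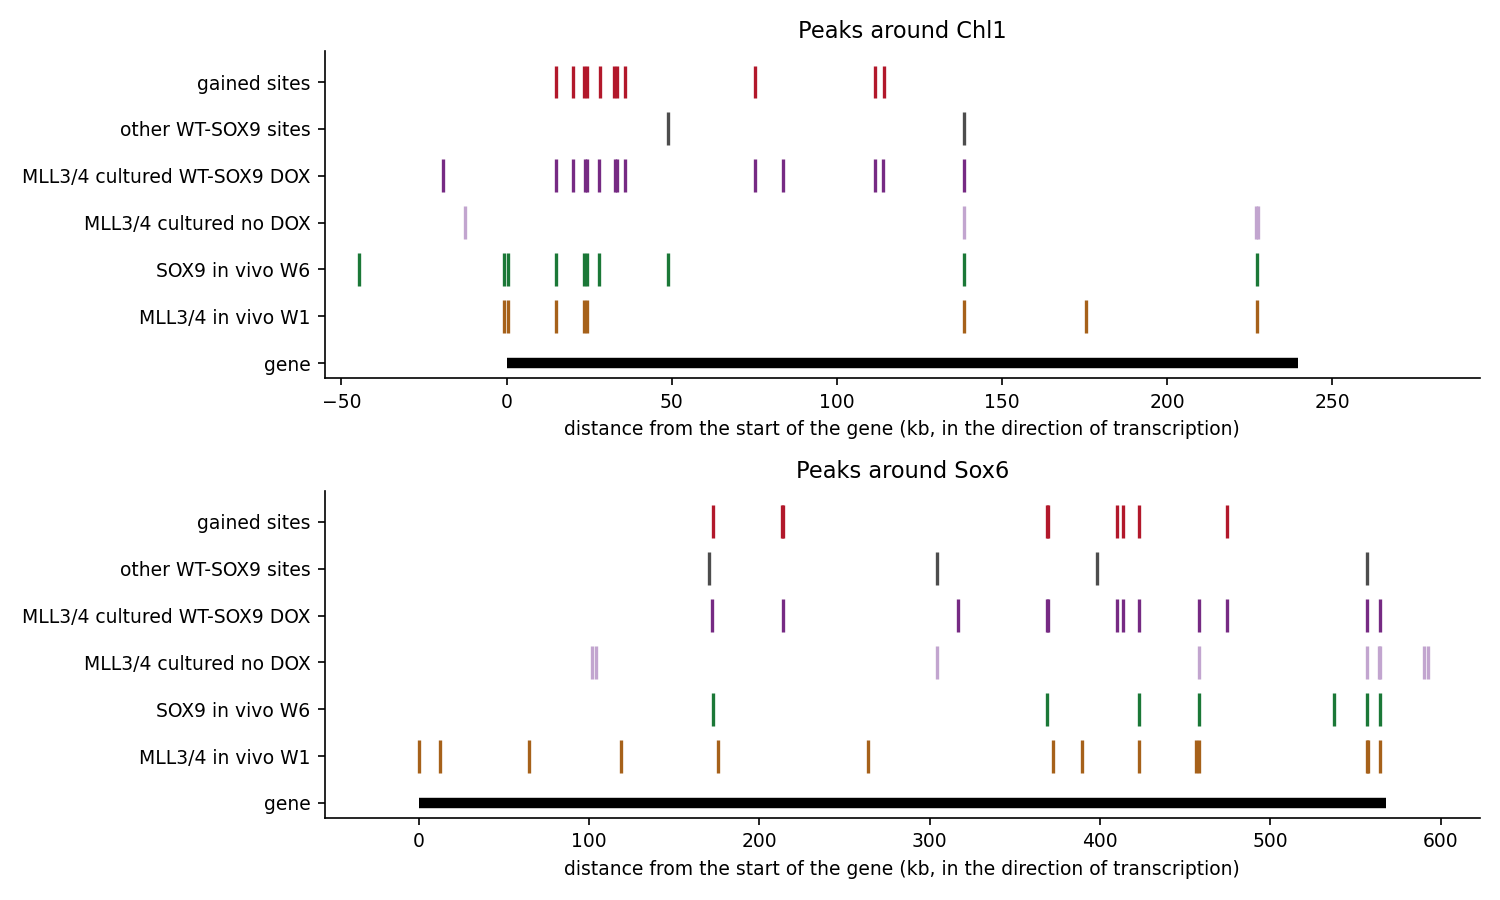
Peaks around Chl1 and Sox6 by distance from the gene's start in kb, 1 tick per peak, in 6 tracks: gained sites, other WT-SOX9 sites, MLL3/4 in culture with and without DOX, SOX9 in vivo at W6 and MLL3/4 in vivo at W1. The black bar is the gene. The 8 gained sites of the first group in Chl1 lie between 14.9 and 36.0 kb, and those of Sox6 between 173 and 475 kb.

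Sox6 and Sox5 encode SOX proteins without a transactivation domain that act with SOX9 in cartilage. The 9 gained sites at Sox6 had MYC-tag maxima of 1806 to 12312 RPKM and lay within the gene, 173 to 475 kb from its annotated start. SOX9 in vivo was listed at 5 of them, at 4 of these in all 4 times from W1 to W12 and at the other at W1 alone, and MLL3/4 in vivo at 2, neither with a D0 peak. Sox5 had 2 gained sites, of 4761 and 4268 RPKM, the first with SOX9 in vivo at all times from W1 to W12 and MLL3/4 at W1, the second with SOX9 at W6 and W12 alone. In the list of cartilage genes known as SOX9 targets, 4 of 15 genes had gained sites, the others being Col9a1 and Col9a3 with 1 each. Of the 15 SOX genes, 3 did, Sox6, Sox5 and Sox11.

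Integrins and laminins, the adhesion genes of basal keratinocytes, had gained sites at 11 of 25 genes (44.0%). Lamc1 had 3, and Itgb1, Itgb6 and Itgb8 had 2 each. SOX9 in vivo was listed at neither the Lamc1, the Itgb1 nor the Itgb6 sites, whereas both Itgb8 sites had it, 1 of them with MLL3/4 at W1 and W2. The TGF-beta and BMP pathway had them at 10 of 31 genes (32.3%), among which Smad2 (a signal transducer) had 3, and Bmp2, Bmp7 and Bmpr1a had 1 each. The site in Bmp7 had SOX9 in vivo from W1 to W6 and MLL3/4 at W1 and W2. Axon guidance ligands and receptors, with long loci of 245 kb at the median, had gained sites at 10 of 43 genes (23.3%), led by Sema5a with 6, Nrp1 with 3 and Sema3c and Sema6a with 2. At Sema5a, 5 of 6 had SOX9 in vivo, and at Nrp1 0 of 3.

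Among hair follicle stem cell transcription factors, 3 of 16 genes had gained sites (18.8%). The site in Tcf7l2, which encodes an effector of WNT signalling, had 8536 RPKM in culture, 2 SOX words, SOX9 in vivo at all times from W1 and MLL3/4 at W1 and W2. The site in Runx1 had 4761 RPKM, 1 SOX word, the same SOX9 pattern and MLL3/4 at W2. Nfib had 2 sites, both with SOX9 from W1 to W12. Of the 20 outer root sheath and hair follicle stem cell markers, 4 had them (20%): Krt6a and Itgb6 with 2 and Col17a1 and Edar with 1. The Krt6a sites lie at -0.722 kb and -47.5 kb from its start, the latter within Krt71, and are the same 2 sites that count for Krt5. Both had SOX9 in vivo at W6 alone. In the Hedgehog pathway, Gli3 (in an intron), Disp1 and Sufu had 1 each of 13 genes (23.1%), all 3 with SOX9 in vivo. In the WNT pathway 4 of 38 genes had them (10.5%), Lrp6 and Tle1 with 2 and Fzd7 and Lrp5 with 1.

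In the 5 lists not yet described, epidermal fate transcription factors had 1 site each at Notch1, Ovol2, Tfap2a and Zfp750, 4 of 20 genes (20%), and mesenchymal genes had them at Zeb2 with 3 and Cdh2 and Vim with 1, 3 of 14 (21.4%). The site at -46.6 kb from the start of Vim was in no in vivo list. Runx1 and Runx2 had 1 each of 7 RUNX genes (28.6%). Batf and Jdp2 share 1 gained site among 11 FOS and JUN genes (18.2%). Of 19 keratin and differentiation genes 4 had them (21.1%), Spink5 with 5, Krt5 with the 2 it shares with Krt6a, and Ivl and Lce1a1 sharing 1. Gata3, Trp63 and Ctnnb1 had 0 gained sites. All 14 lists were chosen with earlier results of these data known, 12.1% is the share over all protein-coding genes, and gene length was not taken into account.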

How the data were processed

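MYC-tag and MLL3/4 CNR of cultured keratinocytes and SOX9 and MLL3/4 CNR of sorted EpdSCs were taken from 18 deposited peak lists, 16 of pooled replicates and 2 of replicate 1 alone. Not analysed here were 9 of the 41 samples, with CNR for BRG1, ARID1a and JUN. The authors used Skewer to trim paired reads of 40 bp and Bowtie2 2.2.9 to align them to mm10, removed duplicates with Picard, filtered fragments to 120 bp with SAMtools 1.3.1, made coverage with deepTools 3.1.2 and called peaks with SEACR (stringent, 0.01), per the labels and the study's methods. The deposited maximum of a peak is in RPKM for SOX9 and MYC tag, kept by the authors above 1800 in the pooled lists and not in those of replicate 1, and is unscaled coverage signal in the 7 pooled MLL3/4 lists. The deposited total score is the signal summed over a peak. Depth is not given: 1 fragment was worth 164 RPKM in the WT-SOX9 list, and the depth of the MLL3/4 lists is unknown.

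The analysis ran in NumPy 2.4.6 and pandas 2.3.3 under Python 3.11.15, without the mitochondrial peaks (3 or 4 in each list of MLL3/4 in culture and in the replicate 1 list of MYC tag). Peaks were shared from an overlap of 1 bp, with a local background from sites moved by 10 kb. Words were counted on both strands of GRCm38.p6, the same build, in 101 bases, and controls lay 1 kb to each side. Genes came from GENCODE vM21, and introns and exons were called over any annotated gene. Shares have 95% Wilson intervals and differences 95% Newcombe intervals, over sites, so they cover counting error alone. In all, 267 such differences were computed, 120 of them between classes, 36 by signal strength and 40 under alternatives, without adjustment. Scripts were tested on simulated data. Named sites and genes follow ranks of total signal and of gained sites per locus, except where said. The sites, lists, words and comparisons were chosen with earlier results of these data known.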

Additional observations from a re-analysis of the deposited data

How the results depend on the processing

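Of 46 alternative values of 7 results, 36 stayed within the interval of the reported share, or within 1.5 times the reported count of gained sites, and 10 did not. Among the 46, the restriction to sites without a D0 peak for MLL3/4 gained in vivo was chosen after seeing the data and gave 24.1%. A MYC-tag maximum above 3600 RPKM left 876 gained sites, of which 46.2% had the SOX word, 44.5% SOX9 in vivo at W1 and 30.3% MLL3/4 gained in vivo at W1. MLL3/4 lists of equal size, 10543 peaks each, gave 37% for SOX9 at W1, 17.1% for MLL3/4 gained in vivo at W1 and 13.0% for the dTA-SOX9 MYC-tag peak. The SOX word stood at 12.2% of gained sites in its longer form and at 52.4% in windows of 100 bp to each side, and promoters of 2.5 kb to each side held 16%. By construction, wider windows and wider promoters find more sites, the longer word finds fewer, and the higher limit leaves fewer gained sites. Equal lists cut the no-DOX MLL3/4 list from 33975 to 10543 peaks, so sites with MLL3/4 before DOX can enter the set, which then held 2844. The in vivo MLL3/4 lists were cut as well. Other causes were not tested.

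Of 40 differences from another class, 38 kept their sign. The 2 that did not are those of the SOX word from sites without MLL3/4, 0.492 points with equal lists and 2.26 points in the wider window, and both intervals hold 0. Side of 0 changed in 3, the longer SOX word and, above 3600 RPKM, SOX9 at W1 and promoters. With the no-DOX lists of replicate 1 in place of the pooled ones (no-DOX data without replicate 2; the lists with DOX stayed pooled), which also lack the 1800 RPKM limit, there were 2409 gained sites, of which 39.3% had the SOX word, 32.5% SOX9 in vivo at W1, 22.6% MLL3/4 gained in vivo, 6.68% the dTA-SOX9 peak, 3.40% MLL3/4 with dTA-SOX9 and 8.09% lay at promoters.

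No paired analysis was possible because each group has 1 pooled list. Depth can limit what an absent peak says, and that of the MLL3/4 lists is unknown. In WT-SOX9 cells the MLL3/4 list with DOX had 10543 peaks against 33975 without DOX, and it is the shortest of the MLL3/4 lists. The part of depth in this was not tested.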
